A study of Mus musculus with 31 samples.

Results

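The replication-dependent histone genes of the mouse were examined in RNA-seq libraries of long-term haematopoietic stem cells (LT-HSCs). They were taken as the protein-coding rows whose symbol begins with Hist1h, Hist2h, Hist3h or Hist4h in GENCODE vM21, the gene annotation in which these names are used. Of 55492 rows in the count table, 21974 of them protein-coding, 67 met this rule. They comprise 6 genes of the linker histone H1 and 18 H2A, 18 H2B, 12 H3 and 13 H4 genes of the nucleosome core.

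The libraries fall into 8 groups named VFDM IFN, VFDM AZA, VFDM COMBO, VFDM vehicle, VF IFN, VF AZA, VF COMBO and VF vehicle, with 4 libraries each except VFDM COMBO, which has 3. All donor cells carried SclCre, a Cre recombinase driven from the Scl gene of early blood cells, the FF1 transgene, which encodes an activated form of the kinase JAK2, and GFP. VFDM cells also had both alleles of Dnmt3a deleted, a gene for a de novo DNA methyltransferase, and VF cells did not. Each recipient was a wild-type mouse that received the mutant marrow together with a 10-fold excess of wild-type marrow. Treatment began 4 weeks after transplant and lasted 8 weeks. IFN is weekly pegylated interferon alpha at 25 µg/kg, AZA is daily 5-azacytidine at 2 mg/kg, and COMBO is both drugs at those doses. The sort took lineage-negative, Sca1-positive, Kit-positive, CD48-negative and CD150-positive marrow cells. The labels name no GFP in that gate and give no age, sex or number of mice behind a library.

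Replication-dependent histone genes supply the histones that package newly copied DNA, and cells make their mRNA mainly in S phase. Their transcripts are the main class of animal mRNA without a poly(A) tail. They end instead in a short stem-loop that is bound by the protein Slbp and lets the mRNA be destroyed when replication stops. This end is formed by a cut shortly after the stem-loop, made with the help of the U7 small nuclear RNA. Long-term stem cells divide rarely, so few of them are in S phase at any time. The libraries were made with a kit that primes cDNA with random oligonucleotides (SMART-Seq Stranded, on total RNA), so RNA without a tail could be read. In these bulk samples, fewer cells in S phase and less histone mRNA per cell cannot be told apart.

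The stem-loop is shown because it sets mRNAs of this kind apart from most others. The search took stems that begin with GG and end with CC, with all 6 bases of each side paired around a 4-base loop. A match was found after the stop codon in the annotated transcripts of 46 of the 67 members. For 13 members the annotation holds no bases after the stop codon. Other members had bases there but no match. Hist1h1a and Hist1h1b were among the members without a match. Capitals mark the 6 paired bases on each side, lower case the 4-base loop, as DNA letters, and the sequences are given 5′ to 3′ from GENCODE vM21 transcripts.
Hist1h1c, Hist2h2aa2, Hist1h3b and 23 more H1, H2A, H2B and H3 genes: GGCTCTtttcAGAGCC
Hist1h3e, Hist1h1t and 4 more H1, H2B and H3 genes: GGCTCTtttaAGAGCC
Hist1h4d, Hist1h4h, Hist4h4 and 4 more H4 genes: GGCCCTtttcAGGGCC
Hist1h4i and Hist2h4: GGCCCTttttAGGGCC
Hist1h4b and Hist1h4j: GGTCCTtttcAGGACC
A single member each held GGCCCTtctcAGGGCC (Hist1h4a), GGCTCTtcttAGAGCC (Hist1h3g) and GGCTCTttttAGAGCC (Hist2h2ac). The 34 members of the H1, H2A, H2B and H3 classes with a stem-loop shared the same stem letters, and none of the 12 H4 members with a stem-loop had them.

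An H2B and an H2A promoter are shown because they hold a motif that was found in these classes, and the promoter of Hist1h1a, an H1 gene called between the vehicle groups, because it lacks it. RefSeq promoters (build GRCm38.p6, 250 bases before to 50 after the annotated start) were matched for 61 of the 67 members. The octamer ATTTGCAT, the binding site of POU factors such as Oct1, was searched on both strands. It was present in 7 of 17 H2A and 6 of 16 H2B promoters and in none of the 6 H1, 10 H3 and 12 H4 promoters, against 1.75% of 27025 promoters in all. Capitals mark the octamer in either orientation, 5′ to 3′ on the strand of the gene, and the Hist1h1a promoter therefore has none.
Hist2h2bb (chr3:96269450-96269749, plus strand): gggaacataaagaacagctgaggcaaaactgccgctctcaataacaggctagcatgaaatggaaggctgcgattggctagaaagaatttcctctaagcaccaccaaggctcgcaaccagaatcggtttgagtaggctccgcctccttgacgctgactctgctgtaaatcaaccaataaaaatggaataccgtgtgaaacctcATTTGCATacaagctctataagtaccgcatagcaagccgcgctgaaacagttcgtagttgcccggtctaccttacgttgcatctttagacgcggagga
Hist1h2ab (chr13:23750838-23751137, plus strand): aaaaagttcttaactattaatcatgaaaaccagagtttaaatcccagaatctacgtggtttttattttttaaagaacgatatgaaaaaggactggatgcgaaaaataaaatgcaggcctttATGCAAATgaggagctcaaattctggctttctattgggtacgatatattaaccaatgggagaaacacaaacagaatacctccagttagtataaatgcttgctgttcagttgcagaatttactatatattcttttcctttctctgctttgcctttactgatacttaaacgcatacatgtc
Hist1h1a (chr13:23763418-23763717, plus strand): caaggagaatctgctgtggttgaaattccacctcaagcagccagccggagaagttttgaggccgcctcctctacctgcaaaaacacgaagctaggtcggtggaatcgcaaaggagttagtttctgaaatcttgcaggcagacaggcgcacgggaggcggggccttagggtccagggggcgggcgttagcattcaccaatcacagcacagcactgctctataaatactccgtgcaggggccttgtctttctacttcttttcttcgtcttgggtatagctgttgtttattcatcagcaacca
The CCAAT box (CCAAT, both strands) was in all 49 H1, H2A, H2B and H3 promoters and in 3 of 12 H4 promoters, against 37.9% of all promoters. The TATA box (TATAAA, both strands) was in 35 of 61, against 14.2%. The core of the interferon-stimulated response element, searched on both strands as GAAA, any 2 bases and GAAA again, was in 1 of 61, that of Hist1h3h, against 3.49%. These are matches of letters and no record of binding.

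Most members lie in the large cluster on chromosome 13, which holds 54 of them between positions 21715763 and 23934851 (mm10). The cluster on chromosome 3 holds 10 (96219865 to 96270132), that on chromosome 11 holds 2 (58948920 to 58956830), and Hist4h4 stands alone on chromosome 6 (136801553 to 136804415). Because many members have near-identical coding sequences, reads can be split between rows. A median of 36.9% of the 75-base words of a member's transcripts also occurred in another member. This share was 0.735% for H1, 68.0% for H2A, 36.8% for H2B, 52.3% for H3 and 24.6% for H4 genes (medians). Single H2A and H3 rows are therefore less certain than H1 rows. Class sums are not changed by a split between rows of the same class, but they would miss shared reads that were not counted. How such reads were handled is not given. Hist1h1a, Hist1h1b and Hist4h4 shared no such word, and Hist2h2aa2 shared all of its words with another member.

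The libraries held 17782394 to 73910928 counts, and 0.270% to 1.38% of them fell on the 67 members. Levels are CPM, counts relative to the TMM-scaled library size. Changes are given on the log2 scale with their SE. They were tested with edgeR's quasi-likelihood test, with Benjamini-Hochberg adjustment over 22172 rows. Called means an adjusted p under 0.05. Some libraries stood apart from the rest. Small RNA rows took 22.3%, 24.9% and 37.5% of VF vehicle libraries 1, 2 and 4, against 5.02% to 10.5% in all others. Mitochondrial rows took 1.82% and 0.859% of VF vehicle libraries 1 and 4, against 6.28% to 11.8% elsewhere. Fewer than 20000 rows were detected in 8 libraries, which were VFDM AZA 3 and 4, VFDM COMBO 3, VF AZA 2 and 3 and VF COMBO 1 to 3. Dnmt3a held 23.0 to 120 CPM in 14 of the 15 VFDM libraries and 104 to 297 CPM in VF libraries, so 8 VFDM libraries lay above the lowest VF library, VF COMBO 3. The library labelled VFDM IFN 3 was the highest VFDM library, at 162 CPM. The other VFDM IFN libraries held 102 to 111 CPM, against 160 to 178 CPM in VF IFN. The summed level of 19 LT-HSC markers was 1415 to 1607 CPM in VFDM COMBO and 1833 to 3492 CPM in all other groups, and 19 erythroid markers summed to 2859 to 22007 CPM in VFDM COMBO and 267 to 1511 CPM elsewhere.

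Linker histone genes gave the most counts. Over all libraries, H1 genes made up 30.9% of the summed member CPM, H2A 26.7%, H2B 16.4%, H3 14.8% and H4 11.1%. Shared words were rarest in H1 genes, and the part of uncounted shared reads in these class shares was not tested. The highest mean levels were those of Hist1h1c (554 CPM), Hist1h1d (382 CPM) and Hist1h1e (351 CPM), which encode the somatic linker histones H1.2, H1.3 and H1.4. Among H2A genes they were those of Hist2h2aa2 (319 CPM), Hist1h2ab (170 CPM) and Hist1h2ak (150 CPM), and among H2B genes those of Hist2h2bb (166 CPM), Hist1h2bg (91.9 CPM) and Hist1h2br (82.7 CPM). Among H3 genes they were those of Hist1h3b (140 CPM), Hist2h3c2 (123 CPM) and Hist1h3e (99.5 CPM), and among H4 genes those of Hist1h4d (185 CPM), Hist1h4h (78.1 CPM) and Hist1h4k (54.9 CPM). The 10 highest members carried 49.0% of the sum. Per kilobase of annotated exon, the order changed to Hist2h2aa2 (604 CPM per kb), Hist2h2bb (436), Hist1h2ak (381), Hist1h2ab (360) and Hist1h1c (355), since Hist1h1d is annotated with 7425 exonic bases. Every word of Hist2h2aa2 also occurred in another member, so its level and its ranks are uncertain as those of a single gene. The testis variants had the lowest means, at 0.77 CPM for Hist1h2ba, 0.29 CPM for Hist1h1t and 0.078 CPM for Hist1h2aa. They had no count in 2, 10 and 8 of 31 libraries, and Hist1h1t and Hist1h2aa were near the detection limit. A count of 0 allows up to 0.0406 to 0.169 CPM, depending on the library (3 counts, counting error only). Hist1h2aa was the member that the filter on low counts removed, so 66 members were tested.

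**Figure D1:**
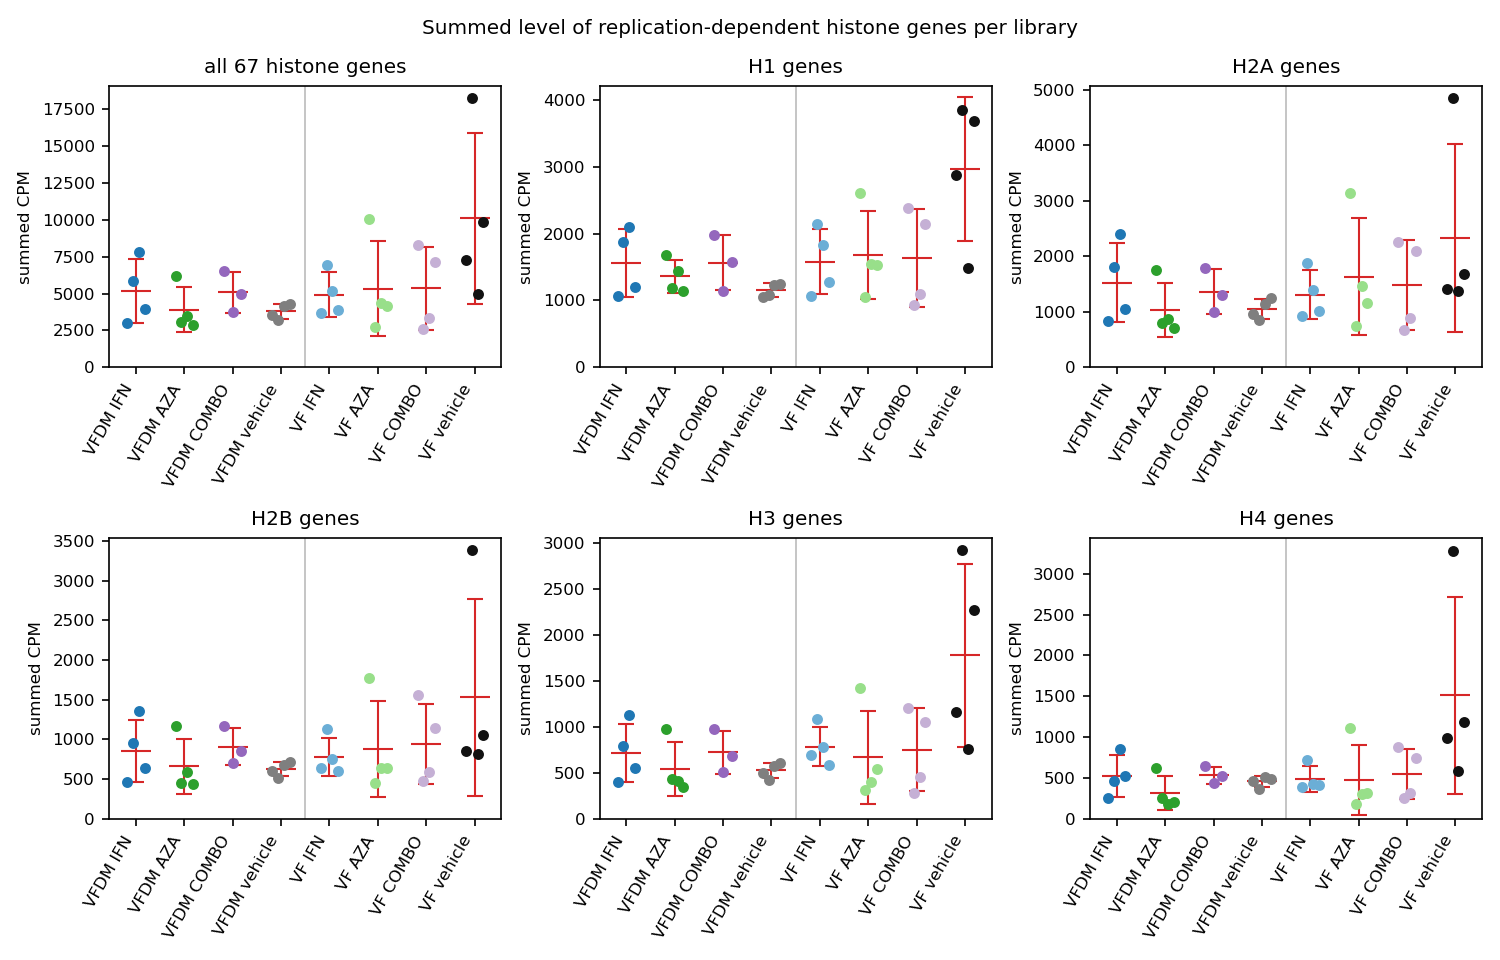
Summed CPM of all 67 histone genes and of each class (y axes) in every library, by group (x axes). Points are libraries and red bars are the mean ± SD; VF vehicle library 2 stands at 18284 CPM and the 4 VFDM vehicle libraries lie at 3226 to 4300 CPM.

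The question of the vehicle groups is whether loss of Dnmt3a goes with another histone mRNA level in cells that carry the same JAK2 transgene. The summed member level was 3568, 3226, 4140 and 4300 CPM in VFDM vehicle libraries 1 to 4, against 7279, 18284, 5004 and 9885 CPM in VF vehicle libraries 1 to 4. The groups did not overlap, and the VF vehicle libraries spread far more widely than the VFDM vehicle ones. The means were 3809 ± 500 CPM in VFDM vehicle and 10113 ± 5801 CPM in VF vehicle (SD, n = 4 each), a ratio of 0.377. Without VF vehicle library 2 the ratio was 0.515, and as shares of total counts without TMM scaling it was 0.487.

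Of the 66 members tested, 6 were called lower in VFDM vehicle than in VF vehicle and 0 higher, where 0.785% of all rows tested were called lower. At an unadjusted p under 0.05, 51 members were lower and 0 higher, against 1625 lower of 22172 rows, and 65 of 66 estimates were negative. The median log2 fold change of the members was -1.36, beside -0.01 for all rows. The 6 called members were the H1 genes Hist1h1a, Hist1h1b and Hist1h1d and the H3 genes Hist1h3e, Hist1h3h and Hist1h3i. In all, 36 members lay lower in every VFDM vehicle library than in any VF vehicle library and 0 lay higher, where 6.87% of all rows tested lay lower without overlap.

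Hist1h1a (ENSMUSG00000049539, chromosome 13, 23763666 to 23764406), which encodes the linker histone H1.1, held 98.3, 102, 125 and 137 CPM in VFDM vehicle, against 409, 576, 200 and 440 CPM in VF vehicle. Every VFDM vehicle library was below every VF vehicle library, and VF vehicle 3 was the lowest of its group. The log2 fold change was -1.81 ± 0.36 (edgeR, adjusted p = 0.0113). Hist1h1b, the gene of H1.5, held 96.8, 97.4, 104 and 133 CPM in VFDM vehicle, against 332, 423, 168 and 419 CPM in VF vehicle, again without overlap (-1.64 ± 0.35, edgeR adjusted p = 0.0176). Hist1h1d held 235, 231, 270 and 262 CPM in VFDM vehicle, against 776, 869, 320 and 1080 CPM in VF vehicle. The groups did not overlap, and VF vehicle 3 lay closest to VFDM vehicle (-1.61 ± 0.36, edgeR adjusted p = 0.0261).

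The called H3 genes had larger estimates and larger SEs than the called H1 genes. Hist1h3h held 18.3, 13.9, 20.5 and 23.0 CPM in VFDM vehicle, against 78.9, 114, 29.4 and 153 CPM in VF vehicle (log2 -2.31 ± 0.52, edgeR adjusted p = 0.0261). Hist1h3i held 29.5, 21.5, 31.3 and 34.1 CPM in VFDM vehicle, against 119, 195, 47.3 and 225 CPM in VF vehicle (-2.34 ± 0.54, edgeR adjusted p = 0.0314). Both were without overlap, with VF vehicle 2 and 4 high and VF vehicle 3 low. Hist1h3e held 60.3, 48.5, 63.8 and 61.2 CPM in VFDM vehicle, against 130, 347, 84.7 and 378 CPM in VF vehicle (-2.01 ± 0.49, edgeR adjusted p = 0.0473). Hist1h3h shares 93.5% of its 75-base words with other members, so its row and that of Hist1h3i are uncertain as single genes.

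By class, the median log2 fold change of VFDM vehicle over VF vehicle was -1.62 for H1, -1.07 for H2A, -1.30 for H2B, -1.89 for H3 and -1.87 for H4. The median SE was 0.63 for H4 and 0.56 for H2B genes, against 0.36 for H1 genes, and no H2A, H2B or H4 gene was called. The H4 gene with the lowest estimate, Hist1h4h, held 63.5, 31.6, 52.3 and 51.6 CPM in VFDM vehicle, against 197, 506, 57.4 and 181 CPM in VF vehicle. Its groups overlapped, since VF vehicle 3 lay below VFDM vehicle 1 (-2.24 ± 0.59, edgeR adjusted p = 0.0689). Among H2A genes Hist2h2aa2 held 223, 171, 247 and 300 CPM in VFDM vehicle, against 308, 1394, 267 and 334 CPM in VF vehicle, where library 2 alone was far above the rest. Only Hist2h2be, an H2B gene known in mouse for its use in non-dividing olfactory neurons, had a positive estimate. It held 11.0, 10.4, 10.6 and 8.35 CPM in VFDM vehicle, against 5.91, 11.1, 10.9 and 7.46 CPM in VF vehicle, and was not called (0.18 on the log2 scale).

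**Figure D2:**
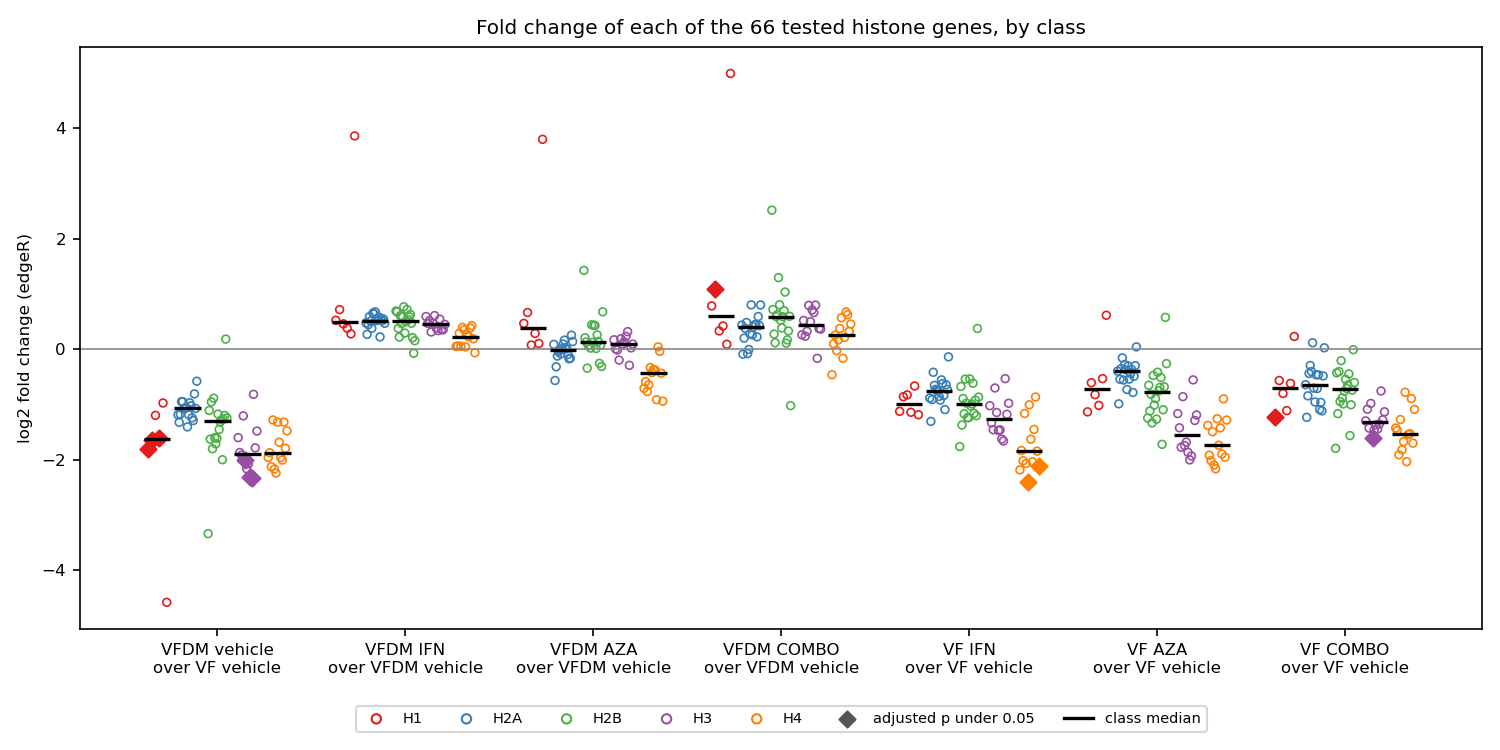
Log2 fold change (y axis, edgeR) of each of the 66 tested members in 7 comparisons (x axis), coloured by class. Filled diamonds are members with an adjusted p under 0.05 and black bars are class medians; H3 and H4 medians lie lowest in the comparisons with VF vehicle, and the H1 point far from the rest in the comparisons that involve VFDM vehicle is the testis gene Hist1h1t, with no count in 3 of the 4 VFDM vehicle libraries.

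These differences rest on the VF vehicle libraries, which did not behave alike. VF vehicle library 2 had the highest level of all 31 libraries for 58 of the 67 members, and VF vehicle library 4 for 5 more. VF vehicle libraries 1 and 4 had a different composition, with H1 genes at 39.5% and 37.3% of the summed member level, against 21.0% in library 2 and 29.7% in library 3. The share of small RNA rows was raised in the same 3 libraries whose histone sums were highest in their group, and that of mitochondrial rows was low in libraries 1 and 4. The part of RNA composition in the difference was not tested. Without VF vehicle libraries 1 and 4, tried once their composition had been seen, the median of the members was -1.72 and 0 were called. Without VF vehicle library 2 the median was -0.80 with 3 called lower, without library 3 it was -1.58 with 19 called lower, and without library 4 there was 1. Here and below, such counts are given without the share of all rows called in the same fit unless stated. A general change in calls can therefore not be told apart from a change in the members. The count also fell to 0 without VFDM vehicle library 1 or 2, to 1 without library 3 and to 2 without library 4. Hist1h1a kept its call in 6 of the 8 cases in which a library was left out, and Hist1h1d and Hist1h3i in 1.

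**Figure D3:**
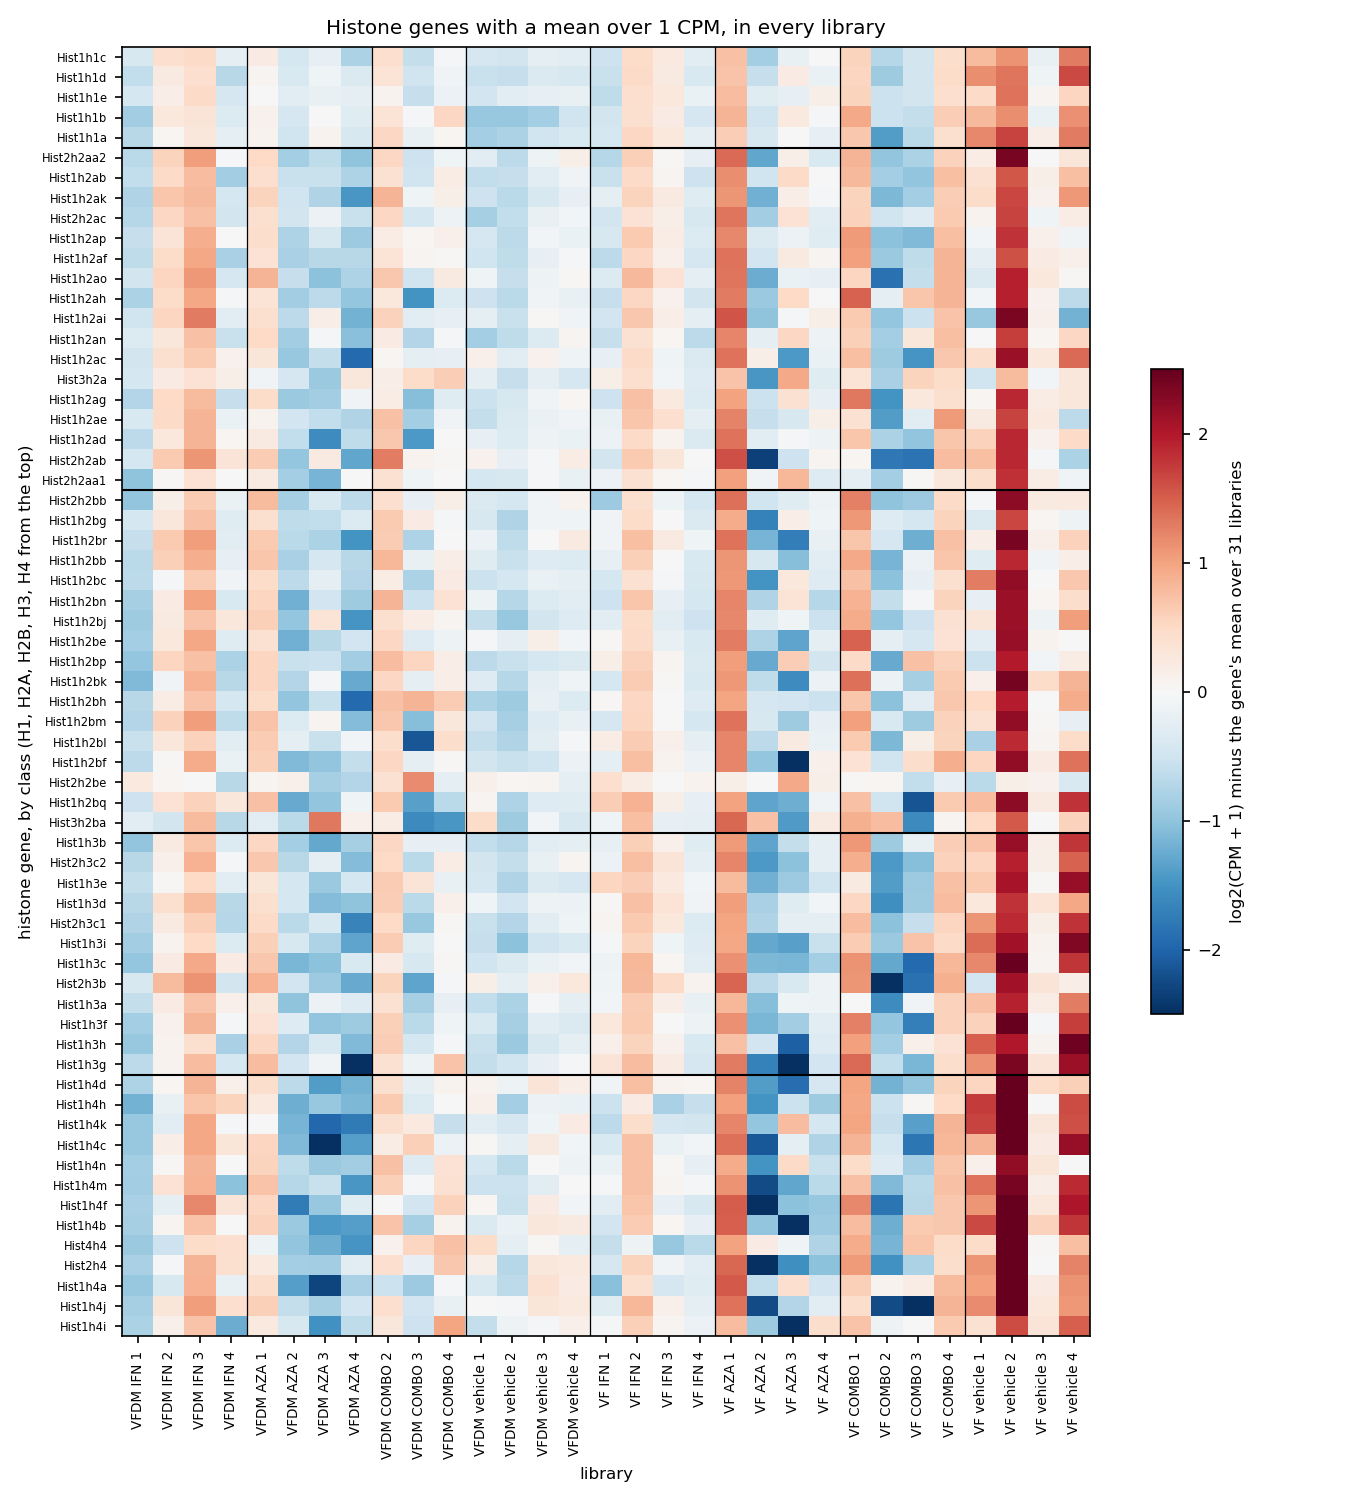
Log2(CPM + 1) minus the mean of the gene over 31 libraries (colour) for the members with a mean over 1 CPM (rows, by class) in every library (columns, by group). VF vehicle library 2 is dark red across nearly all members, VF vehicle library 4 is red mainly in H1, H3 and H4, and VFDM vehicle is pale or blue, with its deepest blue in Hist1h1a and Hist1h1b.

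In a list of 34 DNA replication and S phase genes, 18 were lower and 0 higher at an unadjusted p under 0.05, with a median of -0.49. Of the 34 genes, 3 were called lower and 0 higher. They were Pold1, a DNA polymerase delta subunit (-1.004 ± 0.214, edgeR adjusted p = 0.0126), Cdt1, a licensing factor (-0.79 ± 0.20, edgeR adjusted p = 0.0395), and Mcm2, a subunit of the replicative helicase (-0.72 ± 0.18, edgeR adjusted p = 0.0454). Of 24 G2 and mitosis genes 0 were called, with 13 lower at an unadjusted p under 0.05, 1 lower by DESeq2 and a median of -0.48. Of 20 genes of histone mRNA transcription and 3′ end processing 0 were called (2 higher and 4 lower at an unadjusted p under 0.05, 0 by DESeq2), and of 19 histone chaperones 0 (8 lower at that p, 1 lower by DESeq2). Among 11 replacement histone genes, most of which are expressed outside S phase as mRNAs with poly(A) tails (H2afx is also made as a stem-loop mRNA), H1fx, the linker histone H1.10, was called lower (-1.34 ± 0.31, edgeR adjusted p = 0.0232). At an unadjusted p under 0.05, 7 of the 11 were lower and 0 higher, with a median of -0.56, and DESeq2 called 2 lower.

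The summed S phase list held 2263 to 2922 CPM in VFDM vehicle and 3360 to 4014 CPM in VF vehicle. VF vehicle library 2 had 5.29 CPM of histone genes for each CPM of the S phase list, against 2.17, 1.45 and 2.46 in VF vehicle libraries 1, 3 and 4. In VFDM vehicle this ratio was 1.28 to 1.64. VF vehicle libraries 2 and 3 both held 3459 CPM of the S phase list.

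**Figure D4:**
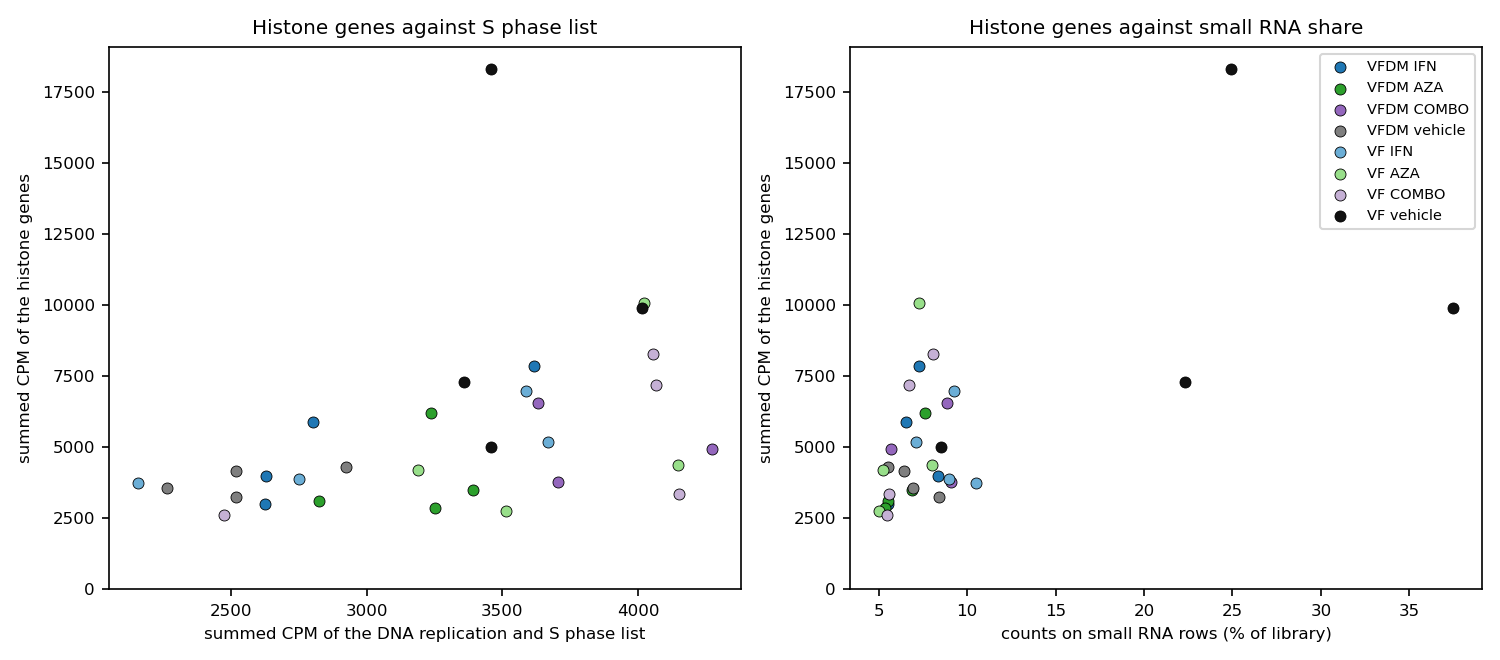
Summed CPM of the 67 histone genes (y axes) against the summed CPM of the 34 S phase genes (left) and the percentage of counts on small RNA rows (right), one point per library, coloured by group. The 3 points beyond 20% small RNA are VF vehicle libraries 1, 2 and 4, and VF AZA 1 reaches 10054 CPM of histone genes at 7.30% small RNA.

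In VF cells, IFN, AZA and COMBO were each set against VF vehicle, so the 3 comparisons share the same 4 vehicle libraries. The summed member level was 3717, 6954, 5188 and 3884 CPM in VF IFN libraries 1 to 4. It was 10054, 2736, 4357 and 4185 CPM in VF AZA libraries 1 to 4. In VF COMBO libraries 1 to 4 it was 8285, 2603, 3345 and 7164 CPM. All 3 groups overlapped VF vehicle, since VF vehicle library 3, at 5004 CPM, lay inside each range. The means were 4936 ± 1498 CPM in VF IFN, 5333 ± 3230 CPM in VF AZA and 5349 ± 2797 CPM in VF COMBO, against 10113 ± 5801 CPM in VF vehicle (SD, n = 4 each).

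Under IFN, 2 members were called lower than in VF vehicle and 0 higher, beside 1.16% of all rows called lower. Both were H4 genes. Hist4h4 held 15.7, 21.9, 12.01 and 14.8 CPM in VF IFN, against 33.5, 177, 24.7 and 41.5 CPM in VF vehicle, and was the 1 member of this comparison whose groups did not overlap, beside 6.01% of all rows that lay lower without overlap (-2.11 ± 0.52, edgeR adjusted p = 0.0248). Hist1h4h held 39.7, 66.9, 32.7 and 38.3 CPM in VF IFN, against 197, 506, 57.4 and 181 CPM in VF vehicle (-2.41 ± 0.60, edgeR adjusted p = 0.0271). A single VF IFN library, number 2, lay above VF vehicle library 3. The median over members was -1.01, beside -0.02 for all rows, and 29 members were lower at an unadjusted p under 0.05, against 1396 of 22172 rows. Without VF vehicle library 2 the median was -0.50 and 0 were called, and without VF vehicle library 3 there were 9 (share of all rows not given). Both calls were also lost without VF IFN library 1, 3 or 4.

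Under AZA, 0 members were called against VF vehicle, beside 1.20% of all rows in either direction, and 30 were lower and 0 higher at an unadjusted p under 0.05, against 1661 lower of 22172 rows. DESeq2 called 7 lower. The smallest p-values were those of Hist1h3h and Hist1h3i. Hist1h3h held 46.4, 19.5, 5.89 and 21.7 CPM in VF AZA, against 78.9, 114, 29.4 and 153 CPM in VF vehicle (-2.003 ± 0.517, edgeR adjusted p = 0.0523). VF AZA library 1 was the highest of its group and overlapped VF vehicle library 3. Hist1h3i held 88.7, 17.7, 16.9 and 30.2 CPM in VF AZA, against 119, 195, 47.3 and 225 CPM in VF vehicle (-1.93 ± 0.53, edgeR adjusted p = 0.0706). The median over members was -0.90, beside -0.07 for all rows. Without VF AZA library 1 it was -1.42 with 12 called lower (share of all rows not given).

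Under COMBO, 2 members were called lower than in VF vehicle and 0 higher, beside 4.13% of all rows called lower, so the members' share was no larger than that of all rows. Hist1h1a held 286, 67.02, 111 and 235 CPM in VF COMBO, against 409, 576, 200 and 440 CPM in VF vehicle (-1.22 ± 0.36, edgeR adjusted p = 0.0348). Hist1h3e held 96.5, 30.9, 43.6 and 138 CPM in VF COMBO, against 130, 347, 84.7 and 378 CPM in VF vehicle (-1.60 ± 0.49, edgeR adjusted p = 0.0422). Both overlapped, with VF COMBO libraries 1 and 4 high. The median over members was -0.96, beside -0.11 for all rows. Without VF vehicle library 2 the median was -0.38 and 0 were called, and without library 3 there were 7 (share of all rows not given). Each call was lost in 5 of the 8 cases in which a library was left out.

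By class, under IFN the median log2 fold change against VF vehicle was -0.99 for H1, -0.75 for H2A, -0.98 for H2B, -1.26 for H3 and -1.85 for H4. Under AZA it was -0.71 for H1, -0.40 for H2A, -0.78 for H2B, -1.55 for H3 and -1.74 for H4. Under COMBO it was -0.71 for H1, -0.64 for H2A, -0.73 for H2B, -1.33 for H3 and -1.53 for H4. The order, with H4 lowest and H3 next, was the same in the 3 comparisons, which share VF vehicle.

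In VF cells under AZA the S phase list had a median of 0.06 and the G2 and mitosis list 0.30, with 0 of 34 and 0 of 24 called (4 and 5 higher, 1 and 0 lower at an unadjusted p under 0.05). DESeq2 called 0 and 1 higher. Under IFN the medians were -0.25 and -0.23, again with 0 called (0 and 0 higher, 6 and 1 lower at that p). DESeq2 called 1 and 0 lower. Under COMBO they were 0.06 and 0.29, where 923 of 22172 rows were called higher. Gins1, a subunit of the helicase complex, was the 1 of 34 S phase genes called higher (1.17 ± 0.37, edgeR adjusted p = 0.0451), a share no larger than that of all rows. In that comparison Npat, the activator of histone gene transcription, was called higher (0.92 ± 0.21, edgeR adjusted p = 0.0047), as were Ccne1, the cyclin that acts on it (1.12 ± 0.36, edgeR adjusted p = 0.0479), and Cpsf2, a subunit of the 3′ cleavage machinery (0.57 ± 0.14, edgeR adjusted p = 0.0079). These were 3 of 20 genes of the transcription and processing list, with 0 lower. Under AZA 1 of the 20 was called higher, Cstf2, a 3′ end processing factor (0.58 ± 0.14, edgeR adjusted p = 0.0251). H1fx was called lower under IFN (-1.44 ± 0.31, edgeR adjusted p = 0.0055) and under COMBO (-1.02 ± 0.31, edgeR adjusted p = 0.0348), and H2afv, an H2A.Z gene, was called lower under COMBO (-0.96 ± 0.26, edgeR adjusted p = 0.0189). Under AZA 0 of the 11 replacement genes were called (3 lower at an unadjusted p under 0.05, 1 lower by DESeq2). Among chaperones under COMBO, Asf1a, which hands over H3 and H4, was called higher (0.90 ± 0.21, edgeR adjusted p = 0.0069), as was Set (0.44 ± 0.12, edgeR adjusted p = 0.0188), and Ipo4, an importin for histones, lower (-0.70 ± 0.16, edgeR adjusted p = 0.0061).

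Markers of other cells moved in the same libraries. Under IFN, 2 of 14 megakaryocyte markers were called higher than in VF vehicle, with their sum at 1074 to 1413 CPM in VF IFN, against 371 to 568 CPM in VF vehicle. Monocyte markers summed to 61.4 to 133 CPM in VF IFN, against 21.7 to 24.8 CPM in VF vehicle, and neutrophil markers to 3.75 to 101 CPM in VF IFN, against 1.39 to 2.60 CPM in VF vehicle. None of the 10 and 12 was called by edgeR, with 6 and 10 higher at an unadjusted p under 0.05 and 4 and 6 called higher by DESeq2. Of the 19 erythroid markers 2 were called higher, with sums of 466 to 621 CPM in VF IFN, against 267 to 571 CPM in VF vehicle.

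Under COMBO, 7 of 19 erythroid markers were called higher than in VF vehicle, with their sum at 478 to 1511 CPM in VF COMBO, against 267 to 571 CPM in VF vehicle. Of the 19 LT-HSC markers 5 were called lower and 1 higher, with sums of 1833 to 2460 CPM in VF COMBO, against 2475 to 2706 CPM in VF vehicle. Of 9 T and NK cell markers tested 3 were called higher. Their list summed to 206 CPM in VF COMBO library 1 and to 20.9 to 28.7 CPM in VF COMBO libraries 2 to 4, against 10.9 to 18.8 CPM in VF vehicle, where Cd3e, Trac, Trbc1, Trbc2 and Gzma were at 0. Under AZA, 0 of the 19 erythroid markers were called against VF vehicle (2 lower at an unadjusted p under 0.05, 0 by DESeq2), with sums of 404 to 521 CPM in VF AZA, against 267 to 571 CPM in VF vehicle. The part of these cells in the VF histone levels was not tested.

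In VFDM cells the summed member level was 3002, 5887, 7837 and 3963 CPM in VFDM IFN libraries 1 to 4. It was 6197, 3102, 3499 and 2841 CPM in VFDM AZA libraries 1 to 4, and 6550, 3782 and 4944 CPM in VFDM COMBO libraries 2 to 4. All 3 groups overlapped VFDM vehicle, at 3226 to 4300 CPM. The means were 5172 ± 2144 CPM in VFDM IFN (n = 4), 3910 ± 1549 CPM in VFDM AZA (n = 4) and 5092 ± 1390 CPM in VFDM COMBO (n = 3), against 3809 ± 500 CPM in VFDM vehicle (SD, n = 4). The highest VFDM IFN library is the one labelled VFDM IFN 3, whose Dnmt3a level lay in the VF IFN range, above all other VFDM libraries.

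Under IFN, 0 members were called against VFDM vehicle, beside 0.965% of all rows, and 1 was higher and 0 lower at an unadjusted p under 0.05. DESeq2 called 0. The smallest p-value was that of Hist1h1b, which held 103, 225, 234 and 148 CPM in VFDM IFN, against 96.8, 97.4, 104 and 133 CPM in VFDM vehicle (0.72 ± 0.34, edgeR adjusted p = 0.789). VFDM IFN library 1 lay inside the vehicle range and the other libraries above it. The next was Hist1h1t, which held 0.281, 0.359, 0.215 and 0 CPM in VFDM IFN, against 0, 0, 0.0439 and 0 CPM in VFDM vehicle, levels too close to the detection limit for a fold change. Over members the median was 0.47, beside -0.01 for all rows, and 0.14 without the library labelled VFDM IFN 3.

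Under AZA, 0 members were called against VFDM vehicle, beside 0.925% of all rows, while DESeq2 called 0 and no p fell under 0.05 before adjustment. Hist1h1b held 203, 141, 189 and 152 CPM in VFDM AZA, against 96.8, 97.4, 104 and 133 CPM in VFDM vehicle. It was 1 member of 66 whose groups did not overlap, beside 5.11% of all rows that lay higher without overlap (0.67 ± 0.34, edgeR adjusted p = 0.569). Hist1h1t held 0.0325, 0.0526, 0.729 and 0 CPM in VFDM AZA, against 0, 0, 0.0439 and 0 CPM in VFDM vehicle. Over members the median was 0.02, and that of the H4 genes was -0.43, with 12 of 13 estimates negative and none called.

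Under COMBO, 1 member was called higher than in VFDM vehicle and 0 lower, beside 5.52% of all rows called higher. This was Hist1h1b, which held 238, 183 and 270 CPM in VFDM COMBO, against 96.8, 97.4, 104 and 133 CPM in VFDM vehicle, without overlap (1.09 ± 0.37, edgeR adjusted p = 0.0413). The call was lost without 5 of the 7 libraries, which were VFDM COMBO 2 or 4 or VFDM vehicle 1, 2 or 3, with an adjusted p of up to 0.130. Hist1h2bh, an H2B gene, held 56.4, 61.8 and 52.8 CPM in VFDM COMBO, against 19.0, 17.7, 29.5 and 26.4 CPM in VFDM vehicle, also without overlap, and was not called (1.30 ± 0.51, edgeR adjusted p = 0.0802). Hist1h1a held 257, 155 and 185 CPM in VFDM COMBO, against 98.3, 102, 125 and 137 CPM in VFDM vehicle (0.79 ± 0.38, edgeR adjusted p = 0.165). In all, 15 members lay higher without overlap, beside 13.3% of all rows. At an unadjusted p under 0.05, 5 of 66 members were higher, against 2342 of 22172 rows. The median was 0.41, beside -0.08 for all rows. With only the VFDM COMBO and VFDM vehicle libraries in the fit, 11 members were called higher, beside 9.3% of all rows.

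In VFDM COMBO 10 of 34 S phase genes were called higher than in VFDM vehicle and 0 lower, with a median of 0.53. Among them were Mcm10 (1.39 ± 0.25, edgeR adjusted p = 0.000173) and the subunits of the replicative helicase Mcm7 (0.70 ± 0.14, edgeR adjusted p = 0.000423) and Mcm2 (0.92 ± 0.19, edgeR adjusted p = 0.000934). Of the G2 and mitosis genes 5 of 24 were called higher and 0 lower. Among chaperones 7 of 19 were called higher and 0 lower, among them Asf1a (1.09 ± 0.23, edgeR adjusted p = 0.000747), Daxx, which deposits H3.3 (1.08 ± 0.23, edgeR adjusted p = 0.00116), and Hira (0.53 ± 0.15, edgeR adjusted p = 0.00995). Of the transcription and processing genes 4 of 20 were called higher and 0 lower, among them Ncbp1, a cap-binding protein (0.66 ± 0.13, edgeR adjusted p = 0.00036), and Ccne1 (1.96 ± 0.39, edgeR adjusted p = 0.000425). Among the replacement genes Cenpa, the centromeric H3, was called higher (1.32 ± 0.23, edgeR adjusted p = 0.000112) and H1f0, a linker histone of differentiated cells, lower (-0.99 ± 0.26, edgeR adjusted p = 0.00808). In the same libraries 17 of 19 erythroid and 12 of 12 neutrophil markers were called higher and 14 of 19 LT-HSC markers lower, and the part of these cells in the histone levels was not tested.

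Fewer genes of these lists were called under the single drugs in VFDM cells. Under IFN, Daxx was called higher (0.90 ± 0.22, edgeR adjusted p = 0.0298), and 0 S phase, mitosis, processing and replacement genes were called, with 1, 1, 2 and 1 higher at an unadjusted p under 0.05 and 0 in each by DESeq2. Under AZA, Ncbp1 was called higher (0.50 ± 0.12, edgeR adjusted p = 0.0313), while 0 S phase genes (8 higher at an unadjusted p under 0.05) and 0 mitosis genes (10 higher at that p) were called, and 0 of either by DESeq2. The neutrophil markers were summed at 19.95 to 507 CPM in VFDM IFN, against 1.21 to 2.29 CPM in VFDM vehicle, with 9 of 12 called higher. Under AZA, 9 of 19 erythroid markers were called higher than in VFDM vehicle, with their sum at 540 to 1381 CPM in VFDM AZA, against 515 to 547 CPM in VFDM vehicle. VFDM AZA library 1, which had the highest histone sum of its group, had the lowest erythroid sum. The part of these cells in the VFDM histone levels was not tested.

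Under each drug the genotypes were also set against each other. Under IFN, 0 members were called between VFDM and VF, beside 0.00902% of all rows, while DESeq2 called 0 and no p fell under 0.05 before adjustment. The member with the smallest p-value, Hist4h4, held 12.3, 16.6, 33.5 and 32.9 CPM in VFDM IFN, against 15.7, 21.9, 12.01 and 14.8 CPM in VF IFN (0.56 ± 0.51, edgeR adjusted p = 1.0). The next, Hist1h4h, was 63.7 ± 32.2 CPM in VFDM IFN and 44.4 ± 15.3 CPM in VF IFN (SD, n = 4 each; edgeR adjusted p = 1.0). Over members the median was 0.07 and -0.24 without the library labelled VFDM IFN 3. Under AZA, 0 were called, beside 0.740% of all rows, and 0 higher and 3 lower had an unadjusted p under 0.05, with 0 called by DESeq2. All 66 estimates were negative, with a median of -0.45, which became 0.10 without VF AZA library 1. Hist1h4k held 41.2, 17.99, 9.93 and 11.6 CPM in VFDM AZA, against 97.6, 20.9, 71.2 and 30.5 CPM in VF AZA (-1.45 ± 0.59, edgeR adjusted p = 0.347), and Hist4h4 was 12.96 ± 6.32 CPM in VFDM AZA and 28.5 ± 15.1 CPM in VF AZA (SD, n = 4 each).

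Under COMBO, 0 members were called between VFDM and VF, beside 5.11% of all rows, and 1 was higher at an unadjusted p under 0.05, with 0 called by DESeq2. That was Hist2h2be, which held 13.4, 23.9 and 8.47 CPM in VFDM COMBO, against 10.2, 10.4, 6.19 and 8.52 CPM in VF COMBO (0.79 ± 0.37, edgeR adjusted p = 0.226). VFDM COMBO libraries 2 and 3 lay above every VF COMBO library and library 4 lay within their range. Hist1h2ah, an H2A gene, was 42.2 ± 23.5 CPM in VFDM COMBO (n = 3) and 96.8 ± 43.9 CPM in VF COMBO (SD, n = 4; -1.19 ± 0.60, edgeR adjusted p = 0.266). The median over members was -0.10, beside -0.06 for all rows.

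COMBO was set against each drug alone within a genotype. In VF cells 0 members were called against IFN, beside 0.00902% of all rows, and 0 against AZA, beside 1.85%, while DESeq2 called 0 in each and no p fell under 0.05 before adjustment. The smallest p-values against IFN were those of Hist4h4 (1.02 ± 0.51, edgeR adjusted p = 0.458) and Hist1h2ah (0.87 ± 0.54, edgeR adjusted p = 0.565). Against AZA they were those of Hist2h2be (-0.59 ± 0.35, edgeR adjusted p = 0.409) and Hist2h2aa1, an H2A gene (-0.72 ± 0.52, edgeR adjusted p = 0.511). In VFDM cells 0 were called against IFN, beside 7.88% of all rows, and 0 against AZA, beside 7.82%, with 0 and 3 higher at an unadjusted p under 0.05. Against AZA the smallest p-value was that of Hist4h4, which held 26.3, 35.4 and 40.95 CPM in VFDM COMBO, against 22.2, 11.8, 9.87 and 8.02 CPM in VFDM AZA, without overlap (1.40 ± 0.55, edgeR adjusted p = 0.117). In that comparison 2 of 66 members lay higher without overlap, beside 5.77% of all rows. The next smallest p-value was that of Hist1h2bh (1.28 ± 0.51, edgeR adjusted p = 0.124). Against IFN they were Hist2h2be (0.67 ± 0.37, edgeR adjusted p = 0.306) and the testis gene Hist1h2ba, at 1.13, 1.21 and 1.10 CPM in VFDM COMBO, against 0, 0.263, 0.752 and 0.260 CPM in VFDM IFN (edgeR adjusted p = 0.432). DESeq2 called 2 members against AZA and 0 against IFN.

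Whether a drug response differed between genotypes was tested with interaction terms, VFDM response minus VF response. For IFN 0 members were called, beside 0.0% of all rows. For AZA 0 were called, beside 0.582% of all rows. For IFN 29 and for AZA 9 members were positive at an unadjusted p under 0.05, with 0 negative, beside 782 and 1340 positive of 22172 rows, and DESeq2 called 0 and 2 members. The smallest p-values were those of Hist1h4h (2.76 ± 0.82, edgeR adjusted p = 0.508) and Hist1h1a (1.65 ± 0.50, edgeR adjusted p = 0.514) for IFN. For AZA they were those of Hist1h1a (1.602 ± 0.502, edgeR adjusted p = 0.201) and Hist1h3h (2.24 ± 0.72, edgeR adjusted p = 0.210). For COMBO 1 member was called, with a positive term, beside 3.74% of all rows in either direction (277 positive and 553 negative of 22172). This was Hist1h1a, with a term of 2.00 ± 0.52 (edgeR adjusted p = 0.0282), from a log2 fold change of 0.79 in VFDM COMBO and -1.22 in VF COMBO, each against its own vehicle. The call was lost without VFDM COMBO library 2, VFDM vehicle library 1 or 2 or VF vehicle library 2. The medians of the terms over members were 1.53 for IFN, 0.86 for AZA and 1.46 for COMBO, beside -0.01, 0.00 and -0.06 for all rows. All 3 terms contain the same difference between the vehicle groups, so they are not independent of each other or of the vehicle comparison.

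The composition of the histone mRNA also varied. H4 genes made up 10.1%, 8.08%, 5.32% and 7.41% of the summed member level in VFDM AZA, against 12.8%, 11.3%, 12.5% and 11.4% in VFDM vehicle. They made up 11.0%, 6.51%, 7.09% and 7.42% in VF AZA, against 13.6%, 17.9%, 11.6% and 12.02% in VF vehicle. In both genotypes every AZA library was below every vehicle library. The H4 share was also below VF vehicle in every VF IFN library, at 8.21% to 10.6%, and in every VF COMBO library, at 9.56% to 10.7%. It overlapped VFDM vehicle in VFDM IFN, at 7.89% to 13.1%, and in VFDM COMBO, at 9.79% to 11.4%. The H1 share was 27.1% to 41.01% in VFDM AZA, against 29.1% to 33.5% in VFDM vehicle, and 25.9% to 38.4% in VF AZA, against 21.0% to 39.5% in VF vehicle, with overlap in both. The H3 share was 9.20% to 14.1% in VF AZA, against 15.1% to 23.0% in VF vehicle, without overlap. In VFDM cells it overlapped, at 11.7% to 15.8% in VFDM AZA, against 13.2% to 14.1% in VFDM vehicle. The H2A and H2B shares overlapped in both genotypes. In the AZA group of each genotype, library 1 had the highest histone sum and the highest H4 share. Of the 8 AZA libraries, 4 had fewer than 20000 detected rows, and the other 4 held H4 shares of 7.42% to 11.0%. The part of library complexity in these shares was not tested.

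**Figure D5:**
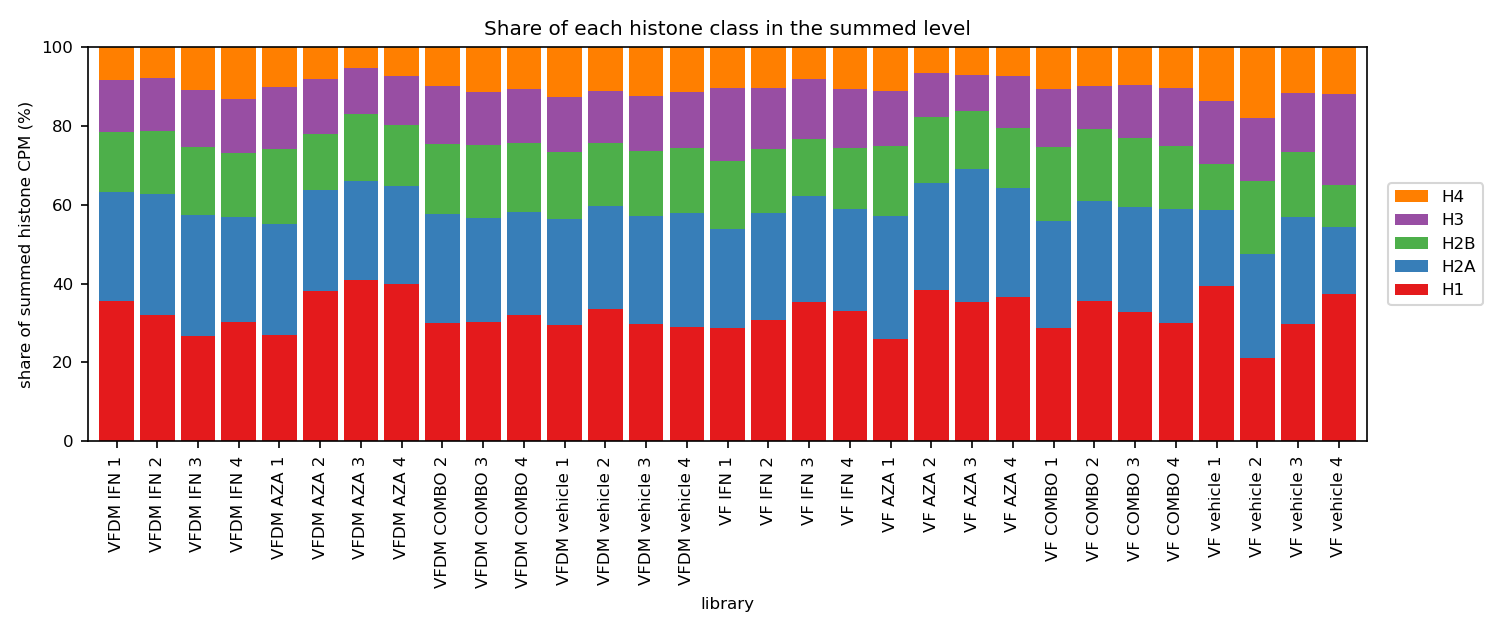
Share of each histone class in the summed CPM of the 67 members (y axis, %) in every library (x axis, by group). The H4 share at the top of each bar is 5.32% to 10.1% in VFDM AZA and 6.51% to 11.0% in VF AZA, against 11.3% to 12.8% in VFDM vehicle and 11.6% to 17.9% in VF vehicle.

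By position on chromosome 13, the 18 members between 21715763 and 21837530 had a median log2 fold change of -1.36 in VFDM vehicle over VF vehicle, the 5 between 22035164 and 22043676 had -1.32, and the 29 between 23531050 and 23764406 had -1.61. The 10 members on chromosome 3 had -1.22. For H2A genes, the median was -1.07 for 6 tested members with an octamer and -1.13 for 10 without it. For H2B genes it was -1.33 for 6 with it and -1.30 for 10 without it. Hist1h3h, whose promoter holds the interferon response core, had a log2 fold change of -1.63 in VF IFN over VF vehicle and 30.4 ± 8.2 CPM in VF IFN, against 93.8 ± 52.6 CPM in VF vehicle (SD, n = 4 each; not called). It held 13.9, 29.5, 36.9 and 15.2 CPM in VFDM IFN, against 18.3, 13.9, 20.5 and 23.0 CPM in VFDM vehicle, with overlap.

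The testis histone genes held at most 3.40 CPM in any library. Hist1h2ba, the testis H2B, held at most 1.78 CPM in any library outside VF vehicle, against 2.18, 3.40, 0.269 and 2.26 CPM in VF vehicle. Hist1h1t held at most 1.67 CPM, in VF AZA library 2. Hist1h2aa held at most 0.600 CPM, in VF COMBO library 4. For Hist1h2ba the values above 2 CPM stood in the 3 VF vehicle libraries with the high small RNA share, and the part of that share was not tested.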

How the data were processed

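RNA from sorted LT-HSCs was extracted with PicoPure and made into stranded libraries, per the labels' protocols. The authors deposited raw counts per gene. Tools named in the submitters' processing notes are STAR 2.7.10a, featureCounts, FastQC 0.11.5 and R 4.3.0, with build mm10. For the annotation, the strand setting and multiply mapped reads, the choice is not given in the sources used here, and near-identical histone rows can share or lose reads. GENCODE vM21 supplied names, classes and positions.

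The count model was fitted with edgeR 4.0.16 under R 4.3.3. Rows were kept with filterByExpr (minimum count 10, minimum total 15, 22172 rows), scaled by TMM and fitted with robust quasi-likelihood, 1 mean per group over all 31 libraries. Tests were two-sided, with Benjamini-Hochberg adjusted p over all kept rows. The SE is the log2 fold change over the square root of F. DESeq2 1.42.0 was an alternative. Before use, the fit was run on simulated data with 200 changed genes. Libraries held 17782394 to 73910928 counts. Limits from a count of 0 cover counting error only. The least different replicate pair had a chi-square of 19.6 per degree of freedom, so no libraries were merged. P-values measure the spread between libraries, which may be technical, since nothing says that they came from separate animals.

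The members and gene lists were chosen with earlier results of these data known. Named members are the 3 highest per class, up to 5 called each way in a comparison or else the 2 with the smallest p, and the testis variants. Genes named outside this rule were chosen after their values were seen.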

Additional observations from a re-analysis of the deposited data

Results flagged for a closer look

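Within groups of 4 libraries, the highest or lowest library was set apart by more than Dixon's 95% limit for 4 samples, on the gap to its nearest neighbour as a share of the range, in 21 of 182 group values examined. Chance flags about 1 in 20, and the values are not independent, since class sums and members move together. All 21 were a high library, in 4 libraries.

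VF vehicle library 2 stood apart with 4849 CPM for the H2A sum (others 1366 to 1679), 3388 CPM for the H2B sum (820 to 1061), 1394 CPM for Hist2h2aa2, 676 CPM for Hist2h2bb, 267 CPM for Hist1h2bg, 358 CPM for Hist1h2br, 937 CPM for Hist1h4d and 177 CPM for Hist4h4. Its small RNA share was 24.9%, and the part of that share was not tested.

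VFDM AZA library 1 stood apart with 1743 CPM for the H2A sum, 976 CPM for the H3 sum, 626 CPM for the H4 sum, 379 CPM for Hist2h2aa2, 206 CPM for Hist1h2ab, 167 CPM for Hist1h3b and 68.9 CPM for Hist1h4h. VF AZA library 1 stood apart with 1778 CPM for the H2B sum, 1110 CPM for the H4 sum and 371 CPM for Hist2h2bb. VF IFN library 2 stood apart with 723 CPM for the H4 sum, 254 CPM for Hist1h4d and 56.9 CPM for Hist1h4k.

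The COMBO interaction term of Hist1h1a was called, at 2.00 (VFDM minus VF, edgeR adjusted p = 0.0282). It was 1 of 66 members tested, beside 3.74% of all rows called in either direction (277 positive and 553 negative of 22172). The term contains the difference between the vehicle groups. The adjusted p was 0.00848 to 0.073 when each of 15 libraries was left out, and the call was lost in 4 of those cases.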

How the results depend on the processing

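No called result reversed under any alternative. The medians over members moved by less than the SD of the library medians, which was 0.26 to 0.91 on the log2 scale. Leaving out 1 library could hardly exceed so wide a spread, so this does not show that the medians were stable. When a library was left out, 4 of the medians changed sign. They ran from -0.40 to 0.17 for VFDM AZA, -0.24 to 0.29 for VFDM IFN against VF IFN, -0.90 to 0.10 for VFDM AZA against VF AZA and -0.32 to 0.26 for VFDM COMBO against VF COMBO. Counts of called members, most of which rest on adjusted p-values near 0.05, moved often. Most of the counts below lack the share of all rows called in the same fit. They do not show whether the members or all rows moved. The cause was not tested.

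Leaving out libraries under 20000 detected rows left VF COMBO with 1 library, assumed to vary like the other groups, and VFDM AZA, VF AZA and VFDM COMBO with 2 each, so counts in their comparisons rest on fewer samples. For VFDM vehicle against VF vehicle (6 lower), the count was 20 with DESeq2, 18 without libraries under 20000 detected rows, 3 with only the groups compared, 1 with no filter on low counts and 0 without VF vehicle libraries 1 and 4. For VF IFN (2 lower) it was 8 with DESeq2, 8 without libraries under 20000 detected rows, 1 with only the groups compared, 1 without VF vehicle libraries 1 and 4 and 0 with no filter. For VF AZA (0) it was 7 lower with DESeq2 and 1 with RLE size factors. For VF COMBO (2 lower) it was 7 with DESeq2, 4 with RLE size factors, 4 with protein-coding rows only, and 0 with no filter, with only the groups compared, without libraries under 20000 detected rows and without VF vehicle libraries 1 and 4. For VFDM AZA (0) it was 1 higher with only the groups compared. For VFDM COMBO (1 higher) it was 11 with only the groups compared, 4 without libraries under 20000 detected rows, 2 with DESeq2 and 0 with no filter. For VFDM COMBO against VFDM AZA (0) it was 2 with DESeq2 and 1 with only the groups compared. The AZA interaction (0) had 2 with DESeq2. The COMBO interaction (1) had 7 with DESeq2, 3 with protein-coding rows only, 2 with RLE size factors, and 0 with no filter, with only the groups compared, without libraries under 20000 detected rows and without VF vehicle libraries 1 and 4.

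With a library left out, the counts ran from 0 to 19 lower for VFDM vehicle against VF vehicle, 0 to 9 for VF IFN, 0 to 12 for VF AZA and 0 to 7 for VF COMBO. They ran from 0 to 1 higher and 0 to 1 lower for VFDM COMBO, 0 to 1 for VFDM COMBO against VFDM AZA, 0 to 1 for the AZA interaction and 0 to 7 for the COMBO interaction. Replicate numbers did not pair the libraries, with correlations of -0.12 to 0.173 between same-numbered libraries. With a replicate block the count was 4 lower for VFDM vehicle against VF vehicle, 1 lower for VF AZA, 1 lower for VF COMBO, 0 for VFDM COMBO and 0 for the COMBO interaction. Members near the detection limit, such as Hist1h1t, carry no usable fold change at this depth.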
